A study of Mus musculus with 6 samples.

Results

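The genes described here are 10 genes of RNA sensing in mouse embryonic stem (ES) cells: Trim25, Ddx58, Ifih1, Dhx58, Mavs, Zbp1, Adar, Tlr3, Zc3hav1 and Isg15. They were selected on their measured counts and fold changes across the time course and taken by name from a table of 55487 Ensembl genes. All 10 were matched to 1 gene ID each and passed the filter on low counts. All libraries came from 1 engineered ES line, D6AdP, in which both Ddx6 alleles carry an auxin-inducible degron with mCherry, 1 Dcp1a allele carries EGFP and an OsTIR1-FLAG transgene supplies the plant adaptor that sends degron-tagged proteins to the proteasome. Cells were given 500 nM 5-Ph-IAA, an auxin analog, for 0, 3 or 6 h, with 2 libraries per time and 6 in all. The cells of the 0 h libraries carry the same alleles and transgene. All were grown with LIF and inhibitors of MEK (PD0325901) and GSK3 (CHIR99021) on mitomycin-C treated fibroblast feeders, so feeder RNA is in every library. No untreated cells collected at 3 or 6 h and no treated cells without the degron were among the samples, so the analog, the handling, the hours and the loss of DDX6 cannot be told apart. In such bulk RNA, fewer cells of a type and less RNA per cell cannot be told apart either.

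RIG-I (encoded by Ddx58), MDA5 (Ifih1) and LGP2 (Dhx58) are helicases that bind viral or other unusual RNA in the cytosol. RIG-I and MDA5 pass the signal to MAVS, an adaptor on mitochondria, and TRIM25 is a ubiquitin ligase known for promoting RIG-I signalling and for acting with ZAP (Zc3hav1), which binds CpG-rich viral RNA. TLR3 senses double-stranded RNA in endosomes, ZBP1 senses Z-form nucleic acids and can start necroptosis, ADAR edits adenosines in double-stranded RNA, and ISG15 is a ubiquitin-like modifier. Most of these genes are induced by interferon in differentiated cells, whereas mouse ES cells are known for a weak interferon response. DDX6 is an RNA helicase of processing bodies that takes part in mRNA decapping and translational repression.

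The 10 genes fell into a well-expressed and a scarce set. Per kilobase of exon, Trim25 was the highest, at 42.7 ± 0.347 CPM per kb at 0 h, 33.7 ± 1.19 at 3 h and 29.2 ± 0.708 at 6 h (mean ± SD, n = 2). CPM values are counts relative to the TMM-scaled library size. Its mean over the 6 libraries, 35.2 CPM per kb, lay above 90.3% of the 13717 tested protein-coding genes. Mavs came next with a mean of 15.1 CPM per kb, and no library of Mavs overlapped with one of Trim25. Ddx58 had a mean of 9.31 CPM per kb, Adar 9.14 and Zc3hav1 8.58, and their library values overlapped when the 3 times were pooled. Their order changed with time. At 0 h Ddx58, Adar and Zc3hav1 had 10.5 ± 1.1, 9.5 ± 0.27 and 7.6 ± 0.45 CPM per kb. At 6 h they had 8.0 ± 0.31, 8.9 ± 0.29 and 10.1 ± 0.80. The scarce set held Zbp1 with 1.63 CPM per kb, Isg15 with 1.40, Dhx58 with 0.622, Tlr3 with 0.236 and Ifih1 with 0.222. Zbp1 and Isg15 overlapped, as did Tlr3 and Ifih1, while the highest Dhx58 library, at 0.756 CPM per kb, lay below the lowest of Isg15, at 1.001. Of the 3 helicases, only Ddx58 was therefore in the well-expressed set, and both Tlr3 and Ifih1 lay among the lowest tested coding genes, above 6.4% and 5.9% of them.

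**Figure D1:**
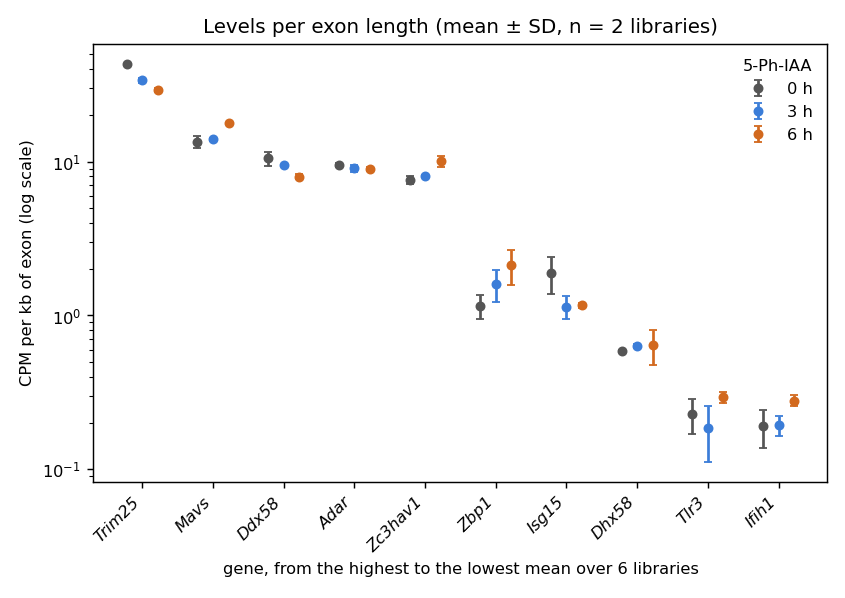
Mean CPM per kb of exon for each gene at 0, 3 and 6 h of 5-Ph-IAA on a log axis, with bars of 1 SD over 2 libraries. Trim25 stands highest at each time, and Tlr3 and Ifih1 lie below 0.4 CPM per kb.

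The type I interferon genes on the lists examined gave almost no reads. Ifnb1 had 1 count in all 6 libraries together, in the library 0 h replicate 2, and Ifna4 had 0 counts, against a level of 3 counts that stood for 0.139 to 0.181 CPM. Feeder and stem cell RNA were both plain. The 24 feeder fibroblast markers, none at 0 in any library, summed to 23270 and 21310 CPM at 0 h, 20690 and 20360 CPM at 3 h and 23170 and 20880 CPM at 6 h. The 12 ES cell markers summed to 5031 and 5230 CPM at 0 h, 5405 and 5352 CPM at 3 h and 4878 and 5075 CPM at 6 h. Of these 12, 9 were called at 6 h against 0 h, 4 higher and 5 lower. The higher ones were Klf4 with a log2 fold change of 0.17, Tdgf1 with 0.14, Sox2 with 0.13 and Nanog with 0.13. The lower ones were Esrrb with -0.42, Lin28a with -0.31, Zfp42 with -0.29, Fgf4 with -0.15 and Dppa5a with -0.14. The 8 macrophage markers, also never at 0, summed to 77.2 and 87.4 CPM at 0 h, 73.4 and 84.5 CPM at 3 h and 89.2 and 94.0 CPM at 6 h. Which cells the sensor RNA came from was not measured. Counts were 16357142 to 21846959 per library.

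The promoters of these genes are shown because interferon-induced genes commonly carry the interferon-stimulated response element, searched here as its core GAAANNGAAA on both strands. RefSeq windows on GRCm38.p6, 250 bases before to 50 after a gene's start, were matched for 8 of the 10 genes, and Zbp1 and Dhx58 were not among them. The core stood in 3.44% of all 32851 windows. Isg15, Ifih1 and Ddx58 each held it, and the windows of Trim25, Mavs, Adar, Tlr3 and Zc3hav1 did not, which says only that these letters are not there. The Isg15 window at chr4:156200769-156201068, minus strand, held 3 overlapping cores that begin 78, 72 and 66 bases before the start. In the Ifih1 window at chr2:62646206-62646505, minus strand, the core begins 32 bases after the start. In the Ddx58 window at chr4:40239776-40240075, minus strand, it begins 2 bases after the start and reads on the opposite strand. Trim25, at chr11:88999153-88999452, plus strand, is printed as the gene called at both times. Capitals mark the cores, and each window is written 5′ to 3′ along its gene.
Isg15: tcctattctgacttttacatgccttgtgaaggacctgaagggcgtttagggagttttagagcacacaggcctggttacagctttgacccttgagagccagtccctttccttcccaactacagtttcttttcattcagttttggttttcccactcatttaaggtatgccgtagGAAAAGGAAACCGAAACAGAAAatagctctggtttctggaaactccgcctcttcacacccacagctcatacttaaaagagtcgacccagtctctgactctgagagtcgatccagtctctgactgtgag
Ifih1: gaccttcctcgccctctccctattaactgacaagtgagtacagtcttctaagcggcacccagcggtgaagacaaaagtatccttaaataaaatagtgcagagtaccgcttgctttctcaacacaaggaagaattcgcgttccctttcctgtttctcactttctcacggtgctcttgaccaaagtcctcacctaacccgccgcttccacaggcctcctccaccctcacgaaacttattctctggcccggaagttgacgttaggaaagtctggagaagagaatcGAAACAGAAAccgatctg
Ddx58: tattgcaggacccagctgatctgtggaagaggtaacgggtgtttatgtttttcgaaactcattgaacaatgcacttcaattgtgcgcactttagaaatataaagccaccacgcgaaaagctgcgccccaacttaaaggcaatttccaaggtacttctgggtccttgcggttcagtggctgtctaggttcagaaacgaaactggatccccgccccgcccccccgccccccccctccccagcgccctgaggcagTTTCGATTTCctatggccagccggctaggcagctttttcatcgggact
Trim25: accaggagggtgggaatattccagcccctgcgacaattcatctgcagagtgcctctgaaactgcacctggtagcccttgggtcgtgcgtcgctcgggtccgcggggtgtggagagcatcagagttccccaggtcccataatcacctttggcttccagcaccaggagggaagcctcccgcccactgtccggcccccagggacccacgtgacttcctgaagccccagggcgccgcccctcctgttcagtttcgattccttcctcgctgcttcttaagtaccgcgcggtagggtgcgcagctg

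After 3 h, Trim25 was the 1 gene of the 10 called changed, and after 6 h Trim25 and Ddx58 were lower and Mavs, Zc3hav1 and Zbp1 were higher. Calls here mean a Benjamini-Hochberg adjusted p under 0.05 in edgeR's quasi-likelihood test over all 15748 tested genes. At 3 h against 0 h, 1 of the 10 was called, lower, where 0.140% of all tested genes were called, 0.0508% higher and 0.0889% lower. That share came from 22 genes, a number that was 249 without 0 h replicate 2, 4 without 3 h replicate 1 and 0 with genes of low counts kept. At 6 h against 0 h, 5 of the 10 were called, 3 higher and 2 lower, where 22.3% of all tested genes were called, 10% higher and 12.3% lower. Between 6 h and 3 h, 4 of the 10 were called, 2 in each direction, where 21.7% were called, 9.89% higher and 11.8% lower, and the 3414 genes behind that share became 1514 without 3 h replicate 2. The median log2 fold change of the 10 was -0.02, 0.24 and 0.17 in those 3 comparisons, beside -0.0008, 0.0019 and 0.0052 over all tested genes. The 10 genes were put together with these comparisons known, so their counts and changes are a description and no p-value is given for them. The comparisons of 3 h and 6 h share the 0 h libraries.

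**Figure D2:**
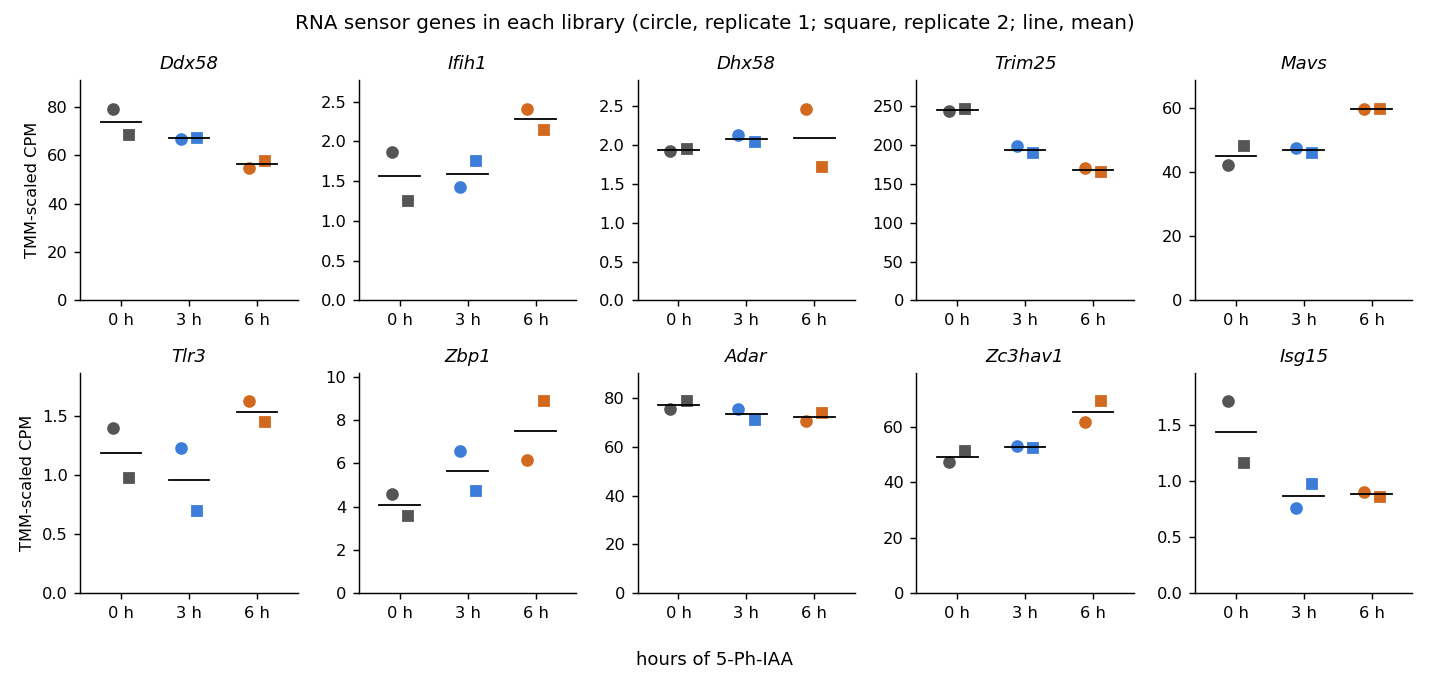
TMM-scaled CPM of each gene in each of the 6 libraries, with 0, 3 and 6 h of 5-Ph-IAA along each horizontal axis, each vertical axis from 0, circles for replicate 1, squares for replicate 2 and a line at the mean. Trim25 steps down at 3 h and again at 6 h, whereas Mavs and Zc3hav1 are higher at 6 h with little difference between 0 and 3 h.

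RIG-I-like receptors and their partners come first. Trim25 (ENSMUSG00000000275, chr11:88999376-89020293, plus strand, GRCm38) had 244.5 and 247.3 CPM at 0 h, 198.9 and 189.3 CPM at 3 h and 170.7 and 164.9 CPM at 6 h. Every library lay below those of the time before it, with no overlap. It fell by 0.34 ± 0.04 on the log2 scale at 3 h (log2 fold change ± SE) and by 0.55 ± 0.04 at 6 h, both against 0 h, which at 6 h was a fold of 0.683. Between 3 h and 6 h it fell by a further 0.21 ± 0.04. The call at 3 h was not made when genes of low counts were kept in the test, with a log2 fold change of -0.34 there too.

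Ddx58, the RIG-I gene (ENSMUSG00000040296, chr4:40203773-40239828, minus strand), had 79.3 and 68.4 CPM at 0 h, 66.7 and 67.2 CPM at 3 h and 54.7 and 57.8 CPM at 6 h. Both 6 h libraries lay below all 4 others. The log2 fold change was -0.14 ± 0.06 at 3 h, not called, and -0.39 ± 0.06 at 6 h, called lower. The 0 h libraries of this gene lay further apart than those of the later times, and without 0 h replicate 2 the 3 h change was called, at -0.25. Against 3 h, the 6 h level fell by 0.25 ± 0.06. That call was lost without 3 h replicate 1 (-0.25), without 3 h replicate 2 (-0.24), without 6 h replicate 1 (-0.20) and with genes of low counts kept (-0.26).

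The other helicases were too scarce for a precise value. Ifih1, the MDA5 gene (ENSMUSG00000026896, chr2:62595798-62646255, minus strand), had 1.87 and 1.25 CPM at 0 h, 1.42 and 1.76 CPM at 3 h and 2.41 and 2.15 CPM at 6 h, which were 27 to 40 counts per library. Both 6 h libraries were above all others, but the log2 fold change of 0.56 ± 0.25 at 6 h was not called. Dhx58, the LGP2 gene (ENSMUSG00000017830, chr11:100694884-100704271, minus strand), had 1.92 and 1.95 CPM at 0 h, 2.13 and 2.04 CPM at 3 h and 2.47 and 1.72 CPM at 6 h. Its 6 h libraries lay on either side of those at 0 h, and the log2 fold change of 0.10 ± 0.24 was not called. Exons of Dhx58 overlap those of its antisense gene Dhx58os over 4.31% of their length.

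Mavs, the adaptor (ENSMUSG00000037523, chr2:131234063-131248025, plus strand), had 42.1 and 48.0 CPM at 0 h, 47.4 and 46.0 CPM at 3 h and 59.8 and 59.6 CPM at 6 h. The 3 h libraries lay between the 0 h libraries, and both 6 h libraries lay above all others. Mavs rose at 6 h by 0.40 ± 0.06 on the log2 scale against 0 h and by 0.35 ± 0.06 against 3 h. The ratio of Ddx58 to Mavs, both in CPM per kb, was 0.892 and 0.677 in the 0 h libraries, 0.668 and 0.692 in those of 3 h and 0.434 and 0.460 in those of 6 h, so that both 6 h libraries lay below the others. This pair was set side by side after its values were seen.

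Among the sensors outside this pathway, Zbp1 had the largest fold change of the called genes. Zbp1 (ENSMUSG00000027514, chr2:173206612-173218923, minus strand) had 4.56 and 3.57 CPM at 0 h, 6.58 and 4.72 CPM at 3 h and 6.15 and 8.86 CPM at 6 h, from 77 to 165 counts. All libraries at 3 and 6 h lay above those at 0 h, while the 3 h and 6 h libraries overlapped. The log2 fold change was 0.48 ± 0.20 at 3 h, not called, and 0.90 ± 0.20 at 6 h, called higher. Without 6 h replicate 2 it was 0.61 and not called, and with genes of low counts kept it was 0.90 and not called either. The change of 0.42 ± 0.18 between 3 h and 6 h was not called, except without 6 h replicate 1, where it was 0.66. The summed macrophage markers were higher in both 6 h libraries than in the 0 h libraries, as given above, and their part in the Zbp1 values was not tested. Lyz2 made up most of that sum, with 41.31 and 51.13 CPM at 0 h and 50.95 and 56.84 CPM at 6 h. Of these 8 markers, 6 had positive log2 fold changes at 6 h against 0 h, and none was called. The largest were 0.78 for Cd14 and 0.59 for Fcer1g, both scarce, with 13 and 24 and 27 and 30 counts at 0 h. The negative ones were the more abundant Adgre1, at -0.06, and Cd68, at -0.05. Against 3 h, 7 of the 8 were positive at 6 h, and Csf1r and Lyz2 were called higher.

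Tlr3 (ENSMUSG00000031639, chr8:45395665-45411080, minus strand) had 1.40 and 0.974 CPM at 0 h, 1.23 and 0.694 CPM at 3 h and 1.63 and 1.45 CPM at 6 h, from 15 to 27 counts. The log2 fold changes of -0.29 ± 0.32 at 3 h and 0.38 ± 0.30 at 6 h were not called. Of its exon length, 7.32% overlaps a gene on the other strand.

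Adar (ENSMUSG00000027951, chr3:89715022-89753446, plus strand), the editing enzyme, had 75.6 and 78.6 CPM at 0 h, 75.6 and 70.9 CPM at 3 h and 70.7 and 74.0 CPM at 6 h. Its mean per kilobase over the 6 libraries was close to that of Ddx58. The log2 fold change was -0.07 ± 0.05 at 3 h and -0.09 ± 0.05 at 6 h, and neither was called. Exons of Chrnb2 on the other strand cover 16.8% of its exon length.

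Of the antiviral effectors, Zc3hav1, the ZAP gene (ENSMUSG00000029826, chr6:38305286-38354603, minus strand), had 47.2 and 51.4 CPM at 0 h, 53.1 and 52.4 CPM at 3 h and 61.9 and 69.3 CPM at 6 h. Both 6 h libraries lay above all others. It rose at 6 h by 0.41 ± 0.06 on the log2 scale against 0 h and by 0.32 ± 0.06 against 3 h, and the 0.10 ± 0.06 at 3 h was not called. Trim25, which acts with ZAP, went the other way. In CPM per kb the ratio of Trim25 to Zc3hav1 was 5.86 and 5.45 in the 0 h libraries, 4.24 and 4.09 in those of 3 h and 3.12 and 2.70 in those of 6 h, a ratio also chosen after the values were seen. Isg15 (ENSMUSG00000035692, chr4:156199424-156200818, minus strand) had 1.71 and 1.16 CPM at 0 h, 0.757 and 0.972 CPM at 3 h and 0.905 and 0.859 CPM at 6 h, from 15 to 33 counts. All libraries at 3 and 6 h lay below those at 0 h, but the log2 fold changes of -0.71 ± 0.30 and -0.69 ± 0.31 were not called.

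**Figure D3:**
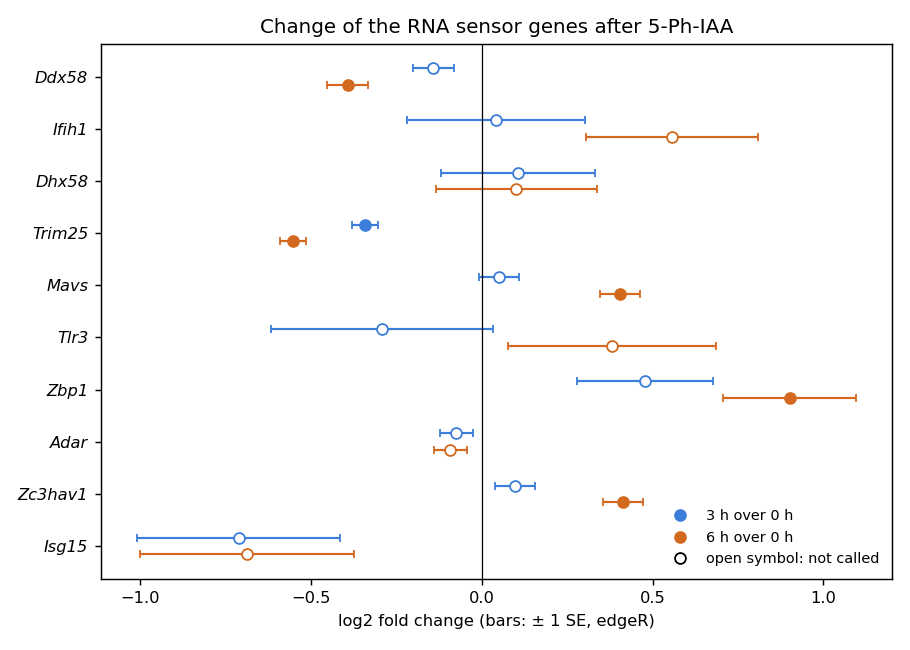
Log2 fold change of each gene at 3 h and at 6 h over 0 h, with bars of 1 SE from edgeR, filled where called. Trim25 is filled at both times, Ddx58, Mavs, Zbp1 and Zc3hav1 at 6 h, and the scarce genes Isg15, Tlr3, Ifih1 and Dhx58 have the widest bars.

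The changes at 6 h can be set beside the promoter windows printed above. Of the 3 genes with the core, Ddx58 fell, and Ifih1 with a log2 fold change of 0.56 and Isg15 with -0.69 were not called. Mavs and Zc3hav1 rose and Trim25 fell without a core in their windows. The transcripts of the called genes differed in form. Trim25 had a 3′ UTR of 3572 bases, longer than in 91% of 13458 tested coding genes, and a G or C at the third position of 71.8% of its codons, where the median gene had 983 bases and 61%. The 3′ UTRs of Mavs and Zc3hav1 were 1236 and 1902 bases long, with G or C at the third position of 55.8% and 56.2% of codons. Ddx58, which fell like Trim25, had 961 bases and 52.5%, below the median on both. Zbp1 had 605 bases and 58.5%. The lower genes, Trim25 and Ddx58, thus lay on either side of the median on both features.

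Adding the feeder markers' mean level to the model left the 5 calls at 6 h against 0 h in place. In log2 CPM this level was 8.14 and 8.05 for the 0 h libraries, with 8.16 and 8.04 for the 6 h libraries. The term differed so little between these groups that it could hardly move their comparison. A part of feeder RNA in these 5 calls was therefore not tested by it. With that term the log2 fold change was -0.55 for Trim25, -0.39 for Ddx58, 0.41 for Mavs, 0.91 for Zbp1 and 0.42 for Zc3hav1. At 3 h it was -0.32 for Trim25, still called. All 24 feeder markers had log2 fold changes below 0 at 3 h, with a median of -0.13 and none called, and 2 of 24 (Col6a2 and Col6a3) were called higher at 6 h against 0 h. At 6 h against 3 h all 24 were positive, with a median of 0.16, and 8 were called higher. With the feeder term, the log2 fold change between 6 h and 3 h was 0.46 for Mavs and 0.52 for Zc3hav1, both still called. The feeder level was 7.94 and 7.96 in the 3 h libraries, below that of every other library. The term therefore partly stood for that time itself, and a part of feeder RNA in calls that involve 3 h was not tested.

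The surrounding pathways moved in both directions at 6 h. Across 9 lists of 156 genes, 138 were tested. At 3 h none was called by edgeR or by DESeq2, where 0.140% of all tested genes were called. In edgeR 17 of the 138 had an unadjusted p under 0.05, as did 1679 of all 15748 tested genes, and the smallest adjusted p was 0.188. At 6 h against 0 h, 32 of 138 were called, 23 higher and 9 lower, a share of 23.2% near the 22.3% of all tested genes, with a median log2 fold change of 0.08. Scaling by upper quartiles or by totals alone gave 28 higher and 5 lower. In the comparison of 6 h with 3 h, 29 of 138 were called, 20 higher and 9 lower, a share of 21.0% beside 21.7%, and 25 higher and 6 lower under either of those scalings. The feeder markers were higher in that comparison too, as given above. With their level in the model 8 of the 138 were called, 7 higher and 1 lower. Over all 15748 tested genes the calls went from 3414 to 1294 with that term. Leaving out any 3 h or 6 h library lowered the pathway count, as it did the count over all tested genes. The count at 6 h against 0 h depended on the tool and the libraries. DESeq2 called 9 of the 138, where it called 1697 of all 15748 tested genes. Leaving out any 0 h or 6 h library lowered the pathway count and the count over all tested genes. Of 21 genes named below by rule, 7 were called under all 17 alternatives run, namely Chuk, Khnyn, Dtx3l, Ddx17, Jak2, Pml and Tmem173. The other 14 lost the call under 1 or more of them. Among all 32 pathway genes called at 6 h against 0 h, the fewest alternatives that kept a call were 5 of 17 for N4bp1, 7 for G3bp1 and 8 for Ywhae.

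**Figure D4:**
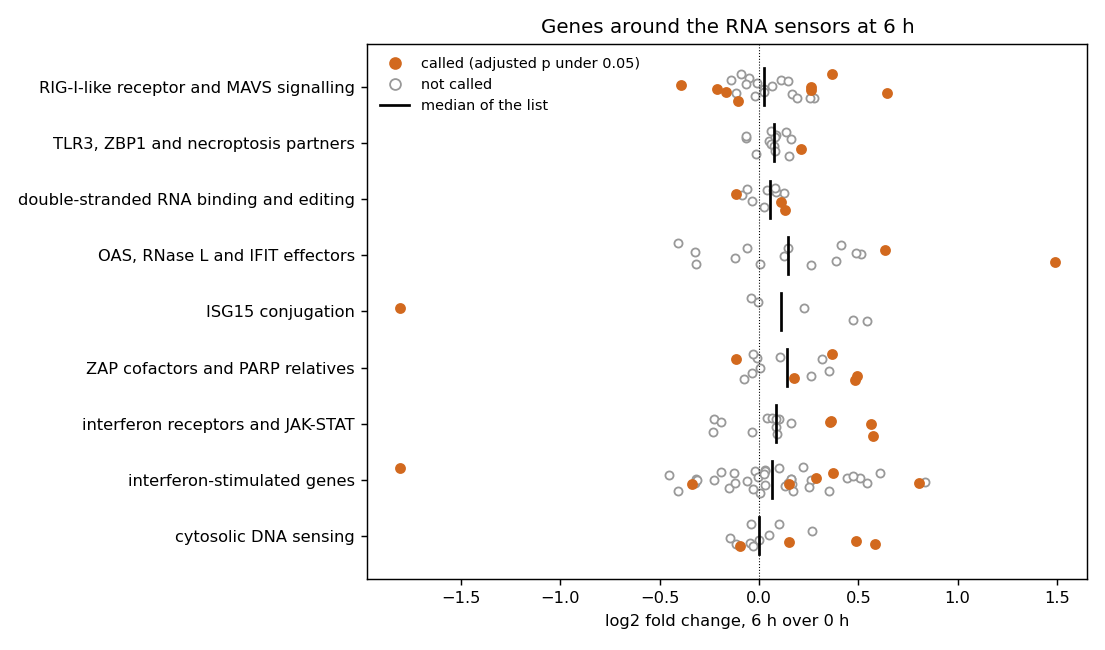
Log2 fold change at 6 h over 0 h of each tested gene of the 9 lists, filled where called, with a line at each list's median. The medians lie between -0.0021 and 0.14, and called genes stand on both sides of 0 in 5 of the 9 lists. Genes of more than 1 list are drawn in each.

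Of 24 tested genes of RIG-I and MAVS signalling, 4 rose at 6 h and 4 fell, a share of 33.3% beside the 22.3% of all tested genes, with a median log2 fold change of 0.02. Traf3, a ligase that links MAVS to the kinases, had 34.9 and 33.7 CPM at 6 h, against 29.4 and 27.8 CPM at 0 h (log2 fold change 0.26 ± 0.06, adjusted p = 0.00647). Irf3, the transcription factor activated by this pathway, rose too, by 0.26 ± 0.07 (adjusted p = 0.0101), as did Tradd. Nlrx1, a mitochondrial NOD-like protein, rose by 0.64 ± 0.15 (adjusted p = 0.00606). Chuk, the kinase IKK alpha, fell to 70.7 and 72.0 CPM at 6 h, against 81.6 and 83.7 CPM at 0 h (-0.21 ± 0.04, adjusted p = 0.00211). Rnf125 and Ywhae fell as well. Tbk1, the kinase that phosphorylates IRF3, averaged 51.4 ± 4.45 CPM at 6 h and 56.7 ± 0.752 CPM at 0 h (SD, n = 2 each), and was not called there. Against 3 h, the 6 h level of Tbk1 fell by 0.19 ± 0.06 (adjusted p = 0.0235). Irf3, Tradd, Rnf125, Ywhae and Tbk1 were named after their values were seen.

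Of 14 tested genes on the list for TLR3, ZBP1 and necroptosis, 1 rose and none fell at 6 h. That share of 7.14% stands beside 22.3% of all tested genes. The list also holds Tlr2, Tlr4 and Myd88, which belong to other Toll-like receptor signalling. The gene that rose was Cflar, an inhibitor of caspase-8, with 45.4 and 39.9 CPM at 6 h, against 38.4 and 35.3 CPM at 0 h (0.21 ± 0.07, adjusted p = 0.0314). Against 3 h, 4 of the 14 were higher at 6 h, namely Unc93b1, Hsp90b1, Casp8 and Cflar, or 28.6% beside 21.7%. The ZBP1 partners Ripk3 and Mlkl were not called. Ripk3 had 54.9 and 48.7 CPM at 6 h, against 56.2 and 52.1 CPM at 0 h, and Mlkl had 3.56 and 3.49 CPM, against 3.21 and 3.52 CPM. The TLR3 adaptor gene Ticam1 had 11.7 and 12.3 CPM at 6 h, against 12.0 and 9.87 CPM at 0 h, and was not called. These 3 were named after their values were seen, for their tie to Zbp1 and Tlr3.

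Of 12 tested genes for other double-stranded RNA binding proteins, Dicer1 and Strbp rose and Dhx9 fell, or 25% beside 22.3% of all tested genes. Dicer1, the microRNA-processing nuclease, changed by 0.11 ± 0.04 (adjusted p = 0.0299), Strbp by 0.13 ± 0.04 (adjusted p = 0.0453) and Dhx9, an RNA helicase, by -0.11 ± 0.03 (adjusted p = 0.0121). These were small changes in abundant transcripts, and Dhx9 had 646.5 and 656.0 CPM at 6 h, against 703.8 and 705.7 CPM at 0 h.

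Among 15 tested OAS, RNase L and IFIT genes, Oasl1 and Oas1g rose at 6 h and none fell, or 13.3% beside 22.3% of all tested genes. Both are scarce members of the oligoadenylate synthetase family, whose close copies the counting may have split. Oasl1 had 12 and 15 counts at 6 h, against 4 and 7 at 0 h (1.49 ± 0.44, adjusted p = 0.0226), and Oas1g had 57 and 81 counts, against 52 and 51 (0.63 ± 0.19, adjusted p = 0.0254). Of 6 genes on the ISG15 list, Usp18, the protease that removes ISG15, fell and none rose, or 16.7% beside that 22.3%. This list holds the integrin gene Itgal beside the genes for ISG15 conjugation. Usp18 had 3 and 3 counts at 6 h, against 13 and 12 at 0 h (-1.81 ± 0.53, adjusted p = 0.0206). The Usp18 and Isg15 counts were both lower at 6 h than at 0 h in every library, but only Usp18 was called.

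Of 14 tested ZAP cofactors and PARP relatives, 4 rose and 1 fell, or 35.7% beside 22.3% of all tested genes, with a median log2 fold change of 0.14. Khnyn, the endonuclease cofactor of ZAP, had 55.1 and 54.7 CPM at 6 h, against 40.4 and 44.7 CPM at 0 h (0.37 ± 0.06, adjusted p = 0.000218). Dtx3l, a ubiquitin ligase that partners PARP9, rose by 0.49 ± 0.08 (adjusted p = 0.000399) and Ddx17, an RNA helicase, by 0.17 ± 0.03 (adjusted p = 0.000903). Parp12, a relative of ZAP named after its value was seen, rose by 0.48 ± 0.10 (adjusted p = 0.00242). N4bp1 fell by 0.11 ± 0.04 (adjusted p = 0.0482), a call kept in 5 of 17 alternatives. Zc3hav1 and its nuclease cofactor Khnyn were thus both higher at 6 h while Trim25 was lower.

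Interferon receptor and JAK-STAT genes included 4 that rose and none that fell, of 15 tested, a share of 26.7% near the 22.3% of all tested genes. Jak2, a receptor kinase, had 22.0 and 20.9 CPM at 6 h, against 16.4 and 16.9 CPM at 0 h (0.36 ± 0.08, adjusted p = 0.00249). Ifngr1 and Ifnlr1, receptor chains for interferon gamma and lambda, rose by 0.36 ± 0.11 (adjusted p = 0.0256) and 0.57 ± 0.18 (adjusted p = 0.0275). The fourth was Irf2. Of 42 tested interferon-stimulated genes, 4 rose and 2 fell, a share of 14.3% beside the 22.3% of all tested genes. Pml, the organiser of PML nuclear bodies, had 187.7 and 191.9 CPM at 6 h, against 153.1 and 158.1 CPM at 0 h (0.29 ± 0.04, adjusted p = 5.36e-05), and Xaf1 fell by 0.34 ± 0.10 (adjusted p = 0.0258). The other calls were Usp18, lower, and Ifi35, Nmi and Samhd1, higher.

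The DNA-sensing arm was examined for contrast. Of its 13 tested genes, 3 rose and 1 fell at 6 h, or 30.8% beside 22.3% of all tested genes. Tmem173, the STING gene, had 14.6 and 13.5 CPM at 6 h, against 9.59 and 9.13 CPM at 0 h (0.58 ± 0.10, adjusted p = 0.000389). Samhd1, a nucleotide hydrolase, rose by 0.15 ± 0.05 (adjusted p = 0.0296), and Cgas, the DNA sensor itself, was the third. G3bp1, a stress-granule protein that binds cGAS, fell by 0.10 ± 0.03 (adjusted p = 0.0368), a call kept in 7 of 17 alternatives and not by DESeq2. Like Mavs, Tmem173 is a signalling adaptor, and like Mavs it had nearly the same level at 3 h as at 0 h, at 9.56 and 9.16 CPM.

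The genes whose profiles were most like that of Trim25, by root mean square difference of centred log2 CPM over 6 libraries among 11690 genes, were Ppp1r10 (0.0368), Amotl2 (0.0397) and Ankrd45 (0.0407). Ppp1r10 had 156.5 and 160.8 CPM at 0 h, 123.3 and 119.9 CPM at 3 h and 107.2 and 99.0 CPM at 6 h. For Zbp1 they were Tmem28 (0.150), Kcnj12 (0.152) and Fndc4 (0.161), which lay further from it than those genes did from Trim25. Counts per library were 77 to 165 for Zbp1 and 2831 to 5334 for Trim25. The part of counting noise in these distances was not tested. Tmem28 had 2.64 and 2.55 CPM at 0 h, 3.83 and 3.38 CPM at 3 h and 4.58 and 5.42 CPM at 6 h. All points of a profile share the 6 libraries.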

How the data were processed

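RNA-seq was done on polyA RNA of 6 libraries, 2 each at 0, 3 and 6 h, made with a stranded kit per the labels. The deposited values are unnormalized read counts for each Ensembl gene. Tools in the submitters' processing notes are HISAT2 2.2.1, featureCounts 2.0.3 and fastp 0.22.0, on GRCm38 (mm10). Not given in the sources used here are the annotation, strandedness setting and handling of multi-mapping reads, so counts of overlapping genes and close copies are uncertain. The line is the only one sampled, and Ddx6 mRNA does not show the level of the degraded protein.

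Symbols and positions came from GENCODE on the same build and were found for 55227 of 55487 IDs, the rest holding 0.0029% of counts. In R 4.3.3, edgeR 4.0.16 (filterByExpr with a minimum of 10, TMM, quasi-likelihood test, 1 fit of 3 group means, 3 residual degrees of freedom) tested 15748 genes holding 99.9% of counts, two-sided, with Benjamini-Hochberg adjustment and a threshold of 0.05. SE is the log2 fold change divided by the square root of F. The test was checked on simulated data. No label names separate cultures for the libraries of a time, and p-values therefore reflect only library-to-library spread, which may be technical. DESeq2 1.42.0, limma 3.58.1 (voom) and other filters, scalings, covariates and left-out libraries were alternatives.

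The 10 genes and the lists were chosen with earlier results of these data known. From each list the rule named up to 3 genes called at 6 h against 0 h with the smallest adjusted p, and for Trim25 and Zbp1 the 3 genes of most similar profile, predicted genes and those averaging under 1 log2 CPM left out. Some genes of the lists are not reported here by name.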

Additional observations from a re-analysis of the deposited data

How the results depend on the processing

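The counts of calls for the 10 genes and for the pathway genes together were recomputed under 17 alternatives; those of single lists were not. No called change of the 10 genes turned its direction. At 3 h against 0 h, where they were not called, Mavs and Zc3hav1 were at -0.05 and -0.10 with the feeder markers as a covariate. Of the 10 sensor genes, 1 was called at 3 h against 0 h in the reported fit, 0 with genes of low counts kept, and 1 to 2 when a library was left out (2 without 0 h replicate 2). At 6 h against 0 h the count stayed at 4 or 5 of 10 and at 6 h against 3 h at 3 or 4, against 5 and 4 as reported. Keeping low counts raised the number of genes tested to 29291. For the 138 pathway genes at 6 h against 0 h, 32 were called as reported, 12 with low counts kept, 9 by DESeq2 and 17 to 27 with a library left out. For 6 h against 3 h, 29 were called as reported, 9 with low counts kept, 8 by DESeq2, 8 with the feeder markers as a covariate, and 7 to 32 with a library left out (7 and 11 without 3 h replicates 1 and 2, and 15 and 19 without 6 h replicates 1 and 2). At 3 h against 0 h none was called as reported, and 0 to 1 with a library left out (B2m, without 0 h replicate 2). DESeq2 gave no adjusted p for 79, 17 and 24 of the 138 genes in the comparisons of 3 h with 0 h, 6 h with 0 h and 6 h with 3 h. Over all genes DESeq2 called 12, 1697 and 1438, against 22, 3515 and 3414 by edgeR. Other causes of these differences were not tested. An older edgeR fit, and all alternatives for the named pathway genes, were added after the data were seen. No scaling moved the median of all genes by more than 0.0355 on the log2 scale.

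Replicate numbers are shared between times in the titles, but same-numbered libraries hardly deviated together (correlations 0.037, 0.040 and -0.021 in the comparisons of 3 h with 0 h, 6 h with 0 h and 6 h with 3 h). With the replicate number as a block, 1, 5 and 4 of the 10 genes were called, and 1, 41 and 36 of the pathway genes, the 1 at 3 h being Strbp. Over all tested genes the block gave 242, 4227 and 4186 calls.

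With 2 libraries per group, genes near 1 CPM such as Isg15 and Tlr3 had SEs of about 0.30 on the log2 scale, against 0.04 for Trim25.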
